A study of Bos taurus with 9 samples.

Results

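The calcium signalling set described here has 9 genes, the calmodulin genes CALM2 and CALM3 and 7 genes that release, pump or sense calcium or respond to it in the egg: ITPR1, ITPR2, CAMK2G, CAMK2D, ATP2A2, ATP2B1 and STIM1. They were taken by symbol from 17852 genes in the deposited table, and all 9 were found and passed the filter on low counts, as did 13206 genes in all. The calmodulin genes are also contrasted with each other, as the rule asks. The set was chosen by the values of these genes in these libraries, their counts and TPM in the 3 groups. Their levels and fold changes are therefore a description and carry no test.

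RNA came from bovine (Bos taurus) oocytes at metaphase II (M II oocyte, female germ cells). There were 3 libraries from oocytes labelled control, 3 from oocytes labelled microplastics and 3 from oocytes labelled microplastics + taurine, called taurine libraries below. The labels give no dose, exposure time, particle type, animal or strain, and no group had taurine without microplastics. Whether a group's libraries stem from different animals or cultures is not stated, so each p-value reflects library-to-library spread alone, which may be technical.

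An ovulated mammalian egg waits at metaphase II until the sperm delivers a phospholipase C, which makes inositol trisphosphate. Inositol trisphosphate opens its receptor on the endoplasmic reticulum, encoded by the ITPR genes, and calcium leaves the store in repeated waves. Calmodulin binds that calcium and switches on calmodulin kinase II, which leads to destruction of the arrest factor EMI2 and to exit from meiosis. Pumps then return calcium to the store or out of the cell, and STIM proteins sense an emptied store and open calcium channels in the plasma membrane. CALM2 and CALM3 lie at separate places in the genome and encode the same protein.

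Libraries held 21.17 to 22.74 M estimated reads. All 15 oocyte markers were detected, among them ZP2 of the zona pellucida and the growth factor BMP15. Scaled by library size only, their sum ranged from 92140 to 103400 CPM in control, was 52760 to 62880 CPM with microplastics, and 83120 to 96150 CPM with taurine. BTG4 was the largest part of that sum, with means of 52150, 24470 and 48060 CPM in the same order. Some oocyte markers went the other way, among them NLRP5 (22.3, 61.6 and 22.8 CPM) and ZAR1 (60.3, 167 and 75.7 CPM), so the sum does not speak for each marker. Cumulus and granulosa markers summed to 430.8 to 598.2, 510.2 to 645.2 and 482.7 to 512.8 CPM, mostly from STAR and HAS2, with FSHR at 0 reads in all libraries but taurine 2, which had 2. That sum hides opposite moves: STAR averaged 255, 382 and 260 CPM, but SERPINE2 40.3, 16.3 and 38.2 CPM. KRT18 had 66, 29 and 42 reads in control, 0, 0 and 1 with microplastics and 16, 4 and 96 with taurine. Erythroid markers summed to 30.3 to 56.1, 13.3 to 21.5 and 14.5 to 22.9 CPM in the same order, and stroma markers to 9.32 to 18.3, 26.2 to 37.0 and 16.7 to 24.7 CPM. Endothelial markers (22.9 to 47.6, 42.8 to 68.7 and 23.9 to 43.5 CPM) and leukocyte markers (5.50 to 7.54, 4.74 to 6.33 and 4.36 to 5.87 CPM) were low too. In the comparison of microplastics with control by edgeR, 2 of the 15 oocyte markers were called higher and 7 lower. Of the 13 tested cumulus and granulosa markers 0 were called higher and 6 lower. Of the tested markers of other cells, 2 of 2 erythroid and 1 of 3 leukocyte markers were called lower. In stroma 1 of 3 was called higher, and 0 of 3 endothelial markers were called. Of all genes 24.3% were called. From microplastics to taurine 6 oocyte markers were called higher and 2 lower, 5 cumulus and granulosa markers higher and 0 lower, and 1 erythroid marker higher, against 14.2% of all genes called. The part of other cells in the results below was not tested. Fewer cells and less RNA per cell cannot be told apart in such bulk libraries.

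Levels between libraries are given as CPM, counts relative to the library's total, scaled by TMM, a method that sets library factors so that most genes do not differ. Levels between genes are given as the deposited TPM, which divides by transcript length. The scaling bears on direction: between control and microplastics the median log2 fold change of all tested genes was 0.04 with TMM and 0.52 with scaling by library size only, and between microplastics and taurine it was -0.02 and -0.45. Ratios of genes within a library do not depend on it. Fold change also moved with transcript length, the median for microplastics minus control going from -0.35 in the shortest of 5 length classes (median 754 nt) to 0.26 in the longest (5079 nt). Each member is therefore given with its length and with its value after that trend was removed.

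CALM2 transcripts were much lower in the microplastics libraries than in the control and taurine libraries, and CALM3 transcripts were not lower in TPM. CALM2 stood at 5089, 4501 and 4306 TPM in control 1, 2 and 3, at 1454, 966 and 1061 TPM in microplastics 1, 2 and 3, and at 4769, 4271 and 4121 TPM in the taurine libraries. All 3 microplastics libraries lay far below the 6 others, and the control and taurine libraries overlapped. By mean TPM CALM2 ranked 18 of 17852 genes in control, 124 with microplastics and 20 with taurine.

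**Figure D1:**
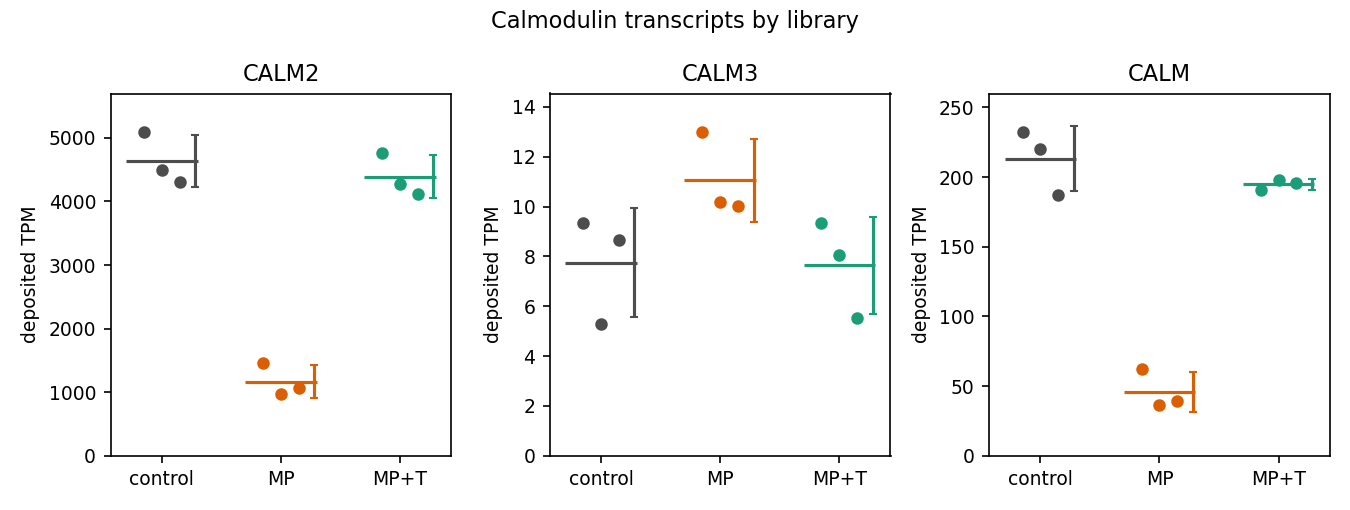
Deposited TPM of CALM2, CALM3 and the further locus CALM in each library (points) with the group mean (line) and SD (bar) over 3 libraries, for control, microplastics (MP) and microplastics with taurine (MP+T). CALM2 and CALM are lower in all 3 microplastics libraries than in any other, and CALM3 lies between 5.27 and 12.98 TPM.

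CALM3 (gene ID 520277) was far less abundant than CALM2 in these oocytes. It stood at 7.75 ± 2.17 TPM in control, 11.05 ± 1.67 with microplastics and 7.64 ± 1.95 with taurine (n = 3, SD). The lowest microplastics library (10.01 TPM) lay above the highest of the others (9.35 TPM). In TPM 49.2% of all tested genes were higher in every microplastics library than in every control library. On log2(TPM + 1) the median log2 fold change of all genes was 0.42 from control to microplastics, against 0.49 for CALM3.

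The contrast of CALM2 with CALM3 within a library does not depend on scaling. The length trend can still bear on it, at lengths of about 939 and 1858 nt. With that trend removed the log2 fold changes from control to microplastics were -2.40 for CALM2 and -0.15 for CALM3. In TPM CALM2 exceeded CALM3 by 546, 854 and 497 times in the control libraries, by 112, 95 and 106 times with microplastics, and by 510, 531 and 747 times in the taurine libraries. All 3 microplastics ratios lay below the 6 others, and control and taurine overlapped. On the log2 scale the mean ratio was 9.26 ± 0.42 in control, 6.70 ± 0.12 in the microplastics libraries and 9.19 ± 0.30 with taurine (n = 3, SD). The differences of these means were -2.56 for microplastics minus control, 2.50 for taurine minus microplastics and -0.07 for taurine minus control.

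CALM3 rests on 197 to 428 reads a library, and its direction depends on the scaling. Its log2 fold change from control to microplastics was -0.10 ± 0.26 (SE) with TMM, 0.39 with library size only and -0.15 with the length trend removed. From microplastics to taurine it was -0.01 with TMM and -0.43 with library size only.

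With TMM scaling CALM2 went from 4513 ± 863 CPM in control down to 731 ± 157 with microplastics, and was 4017 ± 188 with taurine (n = 3, SD). The log2 fold change was -2.63 ± 0.20 (SE) from control to microplastics, a fold of 6.17, and 2.46 ± 0.20 from microplastics to taurine. These 2 comparisons share the microplastics libraries and are not independent of each other. With library size only they were -2.13 and 2.02, and with the length trend removed -2.40 and 2.26, CALM2 being a short transcript of about 939 nt. From control to taurine CALM2 had a log2 fold change of -0.17 ± 0.19, with overlapping libraries.

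CALM2 shares reads with another locus. Its estimated counts (gene ID 100297344) have decimals, whereas the other 8 genes of the set have whole counts in every library. In 9 of 9 libraries the decimals of CALM2 and those of a gene listed as CALM (gene ID 326597, with CALM2 among its synonyms in the RefSeq table) summed to a whole number within 0.02. No other transcript row did so in 7 or more libraries.

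CALM stood at 213 ± 23.4 TPM in control, 45.9 ± 14.3 with microplastics and 195 ± 3.75 with taurine (n = 3, SD). It took 3.58% to 4.69% of the reads of the pair. How reads were divided between the pair is not given in the sources used here, so CALM cannot be read as a transcript that changed on its own. The sum of the pair was 102839, 90439 and 79485 reads in control, 25228, 18221 and 18864 with microplastics and 91484, 82656 and 77754 with taurine. Counted with CALM, the log2 ratio to CALM3 was 9.33 in control, 6.76 in the microplastics libraries and 9.26 with taurine, close to the ratio of CALM2 alone.

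By a rule of likeness, the 5 genes with the highest Pearson correlation of log2 CPM over the 9 libraries were taken for CALM2 and for CALM3. For CALM2 they were CALM (0.998, which shares its reads), DUT (0.996), SARNP (0.995), GNG10 (0.995) and INIP (0.995). Like CALM2 all 5 are short, at about 945, 415, 680, 968 and 254 nt. They fall in the shortest length class, whose median log2 fold change was -0.35 from control to microplastics and 0.27 from microplastics to taurine. The part of length in this likeness was not tested. SARNP, an RNA-binding protein of mRNA export, stood at 725 CPM in control, 227 with microplastics and 659 with taurine, and DUT, the dUTP pyrophosphatase, at 306, 141 and 292.5 CPM.

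For CALM3 the nearest genes were COPE (0.958), CCDC124 (0.955), CCDC12 (0.949), VAMP8 (0.941) and PSTPIP1 (0.931), with log2 fold changes from control to microplastics between -0.94 and 0.06. COPE, a coatomer subunit, stood at 56.4 CPM in control, 53.3 with microplastics and 56.5 with taurine. The points of such a correlation share library and group, so any gene that differs between groups as CALM2 does will correlate with it. With Spearman's rank correlation 0 of the 5 genes of CALM2 and 3 of those of CALM3 were among the closest.

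Calmodulin kinase II is the calcium-dependent kinase of egg activation, and CAMK2G encodes its gamma subunit, the main one in mouse eggs. CAMK2G (gene ID 282162) stood at 38.6, 34.8 and 34.99 CPM in control, 39.2, 49.8 and 54.5 with microplastics and 42.3, 48.5 and 58.0 with taurine. Every microplastics and taurine library lay above every control library, microplastics 1 only narrowly so, and the microplastics and taurine libraries overlapped. The log2 fold change was 0.41 ± 0.19 (SE) from control to microplastics and 0.46 ± 0.19 from control to taurine. With library size only these were 0.89 and 0.50, and with the length trend removed 0.43 and 0.39. Between microplastics and taurine it was 0.05 ± 0.19 with TMM and turned to -0.39 with library size only.

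CAMK2D (gene ID 532713), the delta subunit, stood at 11.9 ± 1.33 CPM in control, 10.9 ± 2.98 with microplastics and 12.3 ± 3.00 with taurine (n = 3, SD), and the 3 groups overlapped. Its log2 fold change from control to microplastics was -0.12 ± 0.26 (SE) with TMM and turned to 0.35 with library size only. With the length trend removed it was -0.28, and 0.29 from microplastics to taurine. Per length, CAMK2G exceeded CAMK2D in all 9 libraries, by 4.73-fold to 11.2-fold in TPM. That ratio averaged 5.56 ± 0.75 in control, 8.51 ± 3.22 with microplastics and 7.52 ± 1.66 with taurine (n = 3, SD), and microplastics 1, at 4.94, lay within the control range. The lengths of about 1541 nt (CAMK2G) and 2791 nt (CAMK2D) differ, so the length trend can bear on this ratio.

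ITPR1 and ITPR2 encode type 1 and type 2 receptors for inositol trisphosphate, and type 1 is the one known to carry calcium release in mammalian eggs. ITPR1 (gene ID 317697) stood at 26.6, 26.5 and 47.8 CPM in control, 50.8, 43.7 and 56.5 with microplastics and 34.1, 35.9 and 23.5 with taurine. Control 3 stood apart from the other control libraries and overlapped microplastics, and all 3 taurine libraries lay below the microplastics libraries. The log2 fold change from control to microplastics was 0.58 ± 0.26 (SE), and it was 0.94 without control 3. With library size only it was 1.03. ITPR1 is the longest transcript of the set, at about 9304 nt, and with the length trend removed the value was 0.31.

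From microplastics to taurine ITPR1 had a log2 fold change of -0.69 ± 0.26 (SE), which was -1.11 with library size only and -0.40 with the length trend removed. From control to taurine it was -0.11 ± 0.26, and it turned to 0.23 without control 3 and to 0.40 without control 3 and taurine 3.

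ITPR2 (gene ID 281878) was low, at 8.11 ± 1.43 CPM in control, 7.36 ± 0.63 with microplastics and 6.95 ± 1.42 with taurine (n = 3, SD), with overlapping groups. Its log2 fold change from control to microplastics was -0.14 ± 0.25 (SE) with TMM and turned to 0.33 with library size only. With the length trend removed, at about 3915 nt for the gene as a whole, it was -0.36. From microplastics to taurine it was -0.08 with TMM and 0.14 with the length trend removed. ITPR2 is the only member with 2 transcript rows, a long one of about 7510 nt and one of about 192 nt that held 0 to 9 reads a library. So few reads on so short a row carry much of the summed TPM.

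The long row of ITPR2 held 37.3%, 39.4% and 34.8% of the gene's TPM in control, 72.0%, 60.0% and 57.4% with microplastics and 100%, 66.2% and 42.1% with taurine, but at least 95.5% of its reads in every library. The mean share of TPM was 26.0 percentage points higher with microplastics than in control, but the mean share of reads by 2.68 points only. With 0 to 9 reads on the short row, and an exact permutation test of 3 against 3 libraries that cannot go below p = 0.1, nothing is read from the share of TPM. The mean log2 TPM of ITPR2 differed by -0.24 between microplastics and control from both rows and turned to 0.52 from the long row alone. On log2(TPM + 1) the median of all genes was 0.42 in that comparison. From the long rows alone ITPR1 exceeded ITPR2 by 3.45 ± 0.81 times in control, 5.60 ± 0.36 with microplastics and 3.85 ± 1.35 with taurine (n = 3, SD). All 3 microplastics libraries lay above all 6 others in that ratio, the nearest being taurine 1 at 5.12 against microplastics 1 at 5.36.

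**Figure D2:**
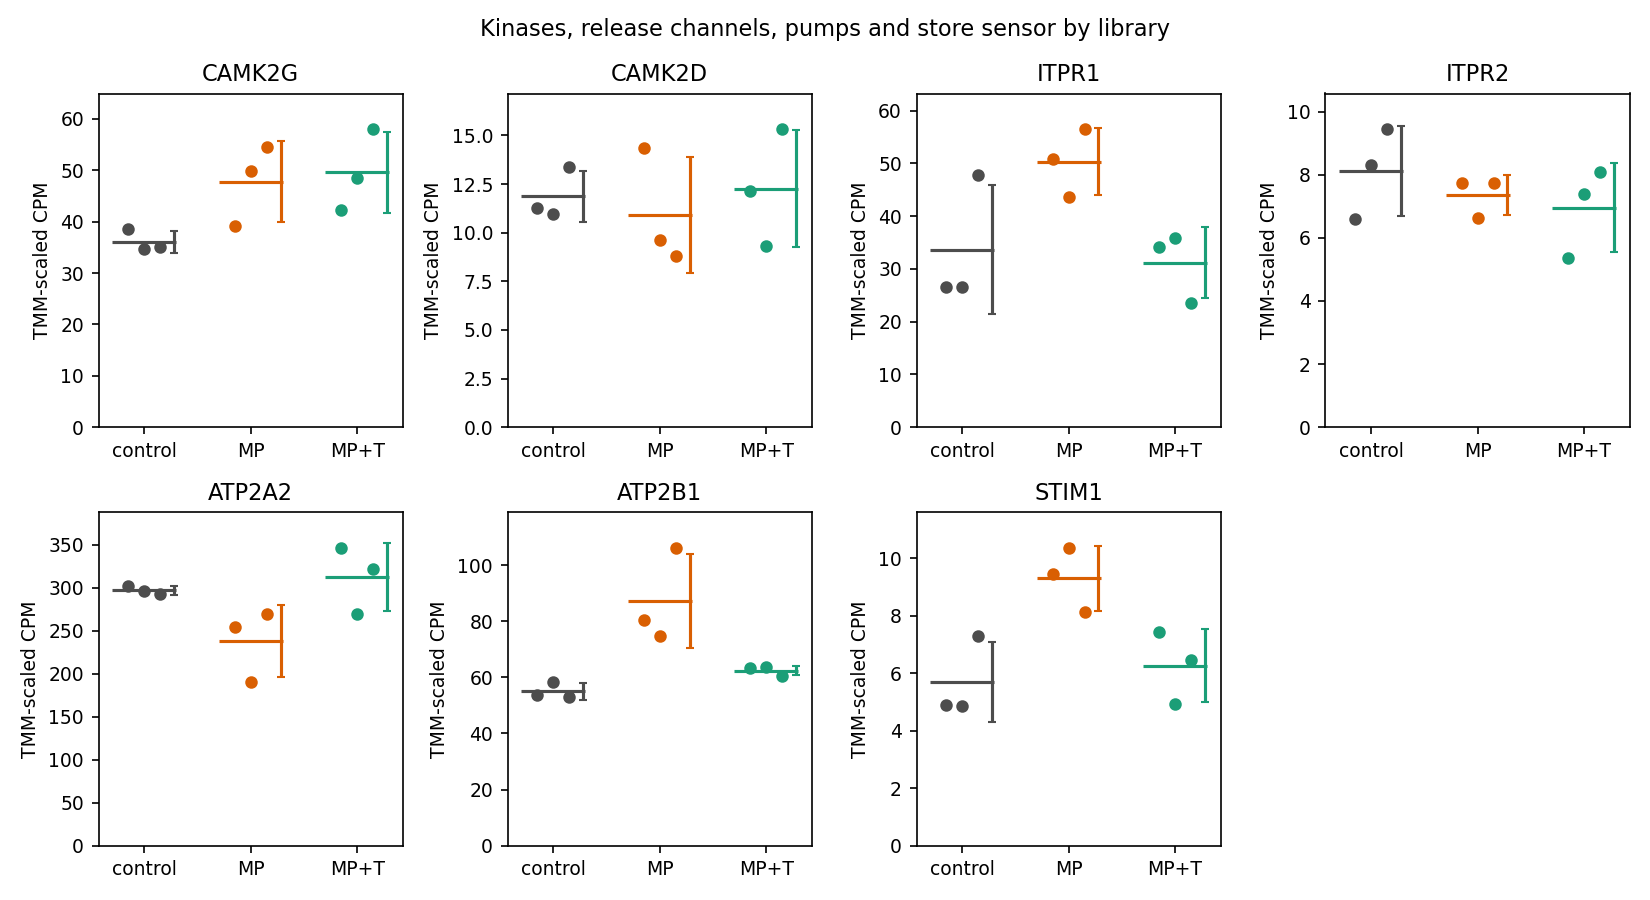
TMM-scaled CPM of the 7 members that are not calmodulins in each library (points) with the group mean (line) and SD (bar) over 3 libraries, for control, microplastics (MP) and microplastics with taurine (MP+T). ATP2B1 and STIM1 are higher in all 3 microplastics libraries than in any other, ATP2A2 is not, and ITPR1 of control 3 lies among the microplastics libraries.

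The 2 pumps of the set did not move together. ATP2A2 encodes SERCA2, the pump that refills the endoplasmic reticulum, and ATP2B1 encodes PMCA1, which moves calcium out through the plasma membrane. ATP2B1 (gene ID 282641) stood at 53.6, 58.5 and 53.1 CPM in control, 80.6, 74.7 and 106 with microplastics and 63.3, 63.6 and 60.5 with taurine. The microplastics libraries were all higher than the others, and the taurine libraries lay narrowly above the control libraries, though in TPM these overlapped. Its log2 fold change was 0.66 ± 0.17 (SE) from control to microplastics, -0.48 ± 0.17 from microplastics to taurine and 0.18 ± 0.17 from control to taurine. With library size only these were 1.15, -0.91 and 0.23, and with the length trend removed 0.43, -0.26 and 0.17, for a transcript of about 4199 nt.

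ATP2A2 (gene ID 540568) stood at 302, 296 and 292 CPM in control, 254, 191 and 269 with microplastics and 346, 269 and 322 with taurine. On this scale the microplastics libraries lay below the control libraries, and only narrowly below taurine 2. Its log2 fold change of -0.32 ± 0.17 (SE) from control to microplastics turned to 0.17 with library size only and to 0.27 on log2(TPM + 1). From microplastics to taurine it was 0.39 ± 0.17 and turned to -0.04 and -0.13 on the same scales. With the length trend removed the values of ATP2A2 were -0.55 and 0.61, in the direction of TMM. The median of all genes from control to microplastics was 0.52 with library size only and 0.42 on log2(TPM + 1). No direction that holds on each of these scales can be given for ATP2A2.

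The ratio of the pumps within a library is free of that choice. ATP2B1 had 0.170, 0.189 and 0.174 of the TPM of ATP2A2 in control, 0.303, 0.374 and 0.377 with microplastics and 0.174, 0.225 and 0.179 with taurine. All 3 microplastics libraries lay above the 6 others, and control and taurine overlapped. Their lengths of about 4199 and 4011 nt are close, so the length trend bears little on this ratio.

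STIM1, the sensor of store calcium, was a low transcript of the set. STIM1 (gene ID 534816) stood at 4.90, 4.86 and 7.29 CPM in control, 9.43, 10.4 and 8.12 with microplastics and 7.41, 4.92 and 6.46 with taurine, from 90 to 286 reads a library. The 3 microplastics libraries lay above the 6 others, and control 3 was the highest of the control libraries, as it was for ITPR1. The log2 fold change was 0.71 ± 0.27 (SE) from control to microplastics and -0.57 ± 0.26 from microplastics to taurine. With library size only these were 1.17 and -1.0, and with the length trend removed 0.53 and -0.42, for a transcript of about 3063 nt. From control to taurine it was 0.14 ± 0.27.

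**Figure D3:**
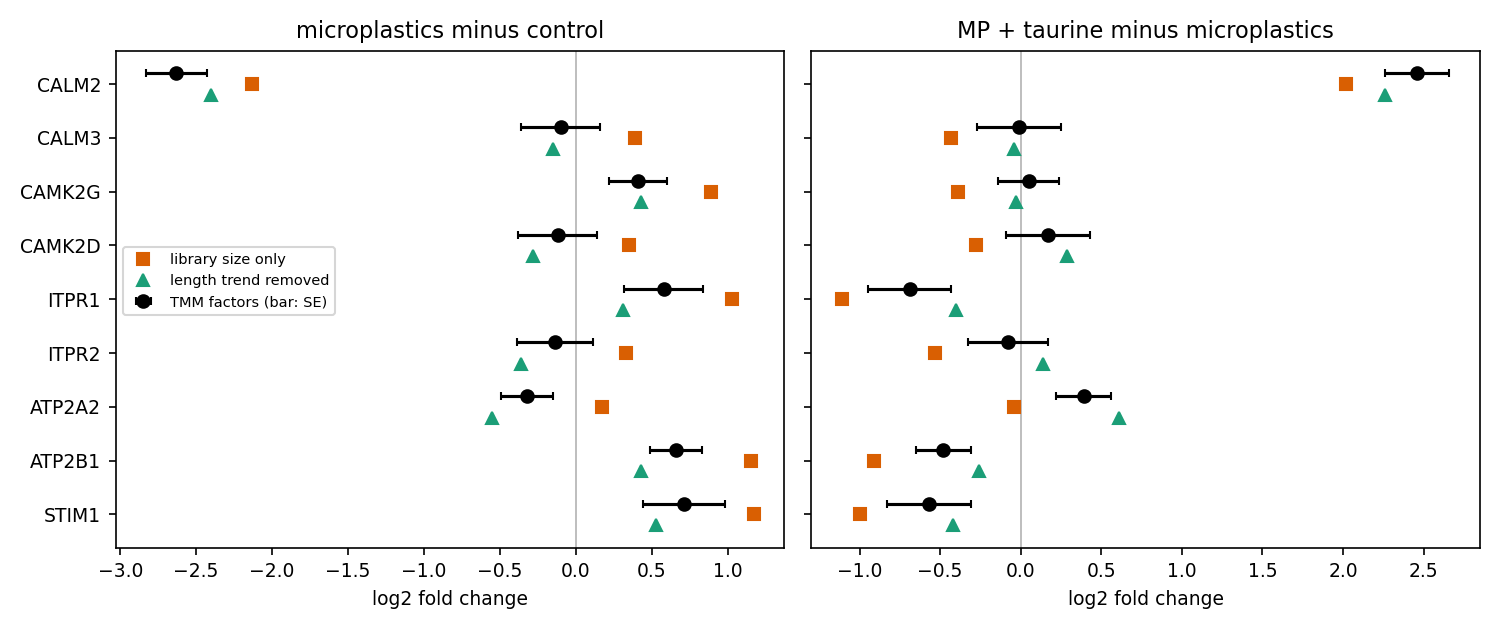
Log2 fold change of the 9 members from control to microplastics (left) and from microplastics to microplastics with taurine (right), with TMM factors (circles, bars are SE), scaling by library size only (squares) and the length trend removed (triangles). CALM2 lies beyond 2 on each side under all 3 settings, ITPR1, ATP2B1 and STIM1 keep their sign in both panels, and CALM3, CAMK2G, CAMK2D, ITPR2 and ATP2A2 change sign between settings in 1 panel or both.

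Per length, the order of the set in control was CALM2, ATP2A2, CAMK2G, ATP2B1, CALM3, CAMK2D, ITPR1, ITPR2 and STIM1, at 4632, 72.1, 22.8, 12.8, 7.75, 4.19, 3.63, 2.78 and 1.85 TPM. From CALM3 downward neighbours in that order overlapped between libraries. The place of ITPR2 rests on its short row: the long row alone had 0.75, 0.99 and 1.33 TPM in control, below STIM1 at 1.43, 1.47 and 2.64 TPM. With microplastics CALM2, at 1161 TPM, was still the first by a wide margin over ATP2A2 at 88.5 TPM.

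Over the 9 members, 3 were higher in every microplastics library than in every control library on the TMM scale (CAMK2G, ATP2B1 and STIM1) and 2 were lower (CALM2 and ATP2A2). Of all tested genes 22.4% were higher and 22.5% lower in that way. In TPM 5 members were higher and 1 lower, against 49.2% and 8.5% of all genes. Between microplastics and taurine 2 members were higher without overlap (CALM2 and ATP2A2), against 18.7% of all genes, and 3 lower (ITPR1, ATP2B1 and STIM1), against 17.4%. In TPM 1 was higher and 5 lower, against 5.98% and 45.0%. Between control and taurine CAMK2G and ATP2B1 were higher without overlap, against 4.59% of all genes, and 0 were lower, against 4.57%. In TPM CAMK2G alone was higher and 0 were lower, against 4.95% and 3.48%. Since the members were chosen with these values known, nothing is read from these counts.

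The other genes of the pathway came from 9 lists by known role, 108 genes of which 79 were tested. The lists were chosen with earlier results of these data known. Their shares of calls and adjusted p-values therefore describe these libraries and are no independent evidence. From control to microplastics 6 were called higher, 6 lower and 67 did not pass, at an adjusted p under 0.05 over all genes. Of all tested genes 24.3% were called, 9.68% higher and 14.7% lower. The median log2 fold change of the 79 was 0.09, against 0.04 for all genes. With library size only the counts turned to 28 higher and 5 lower, with a median of 0.56 against 0.52. Without single libraries the 12 calls became 5 (control 1), 5 (control 2), 20 (control 3), 4 (microplastics 1), 7 (microplastics 2) and 4 (microplastics 3), and 26 with control 3 and taurine 3 both left out.

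**Figure D4:**
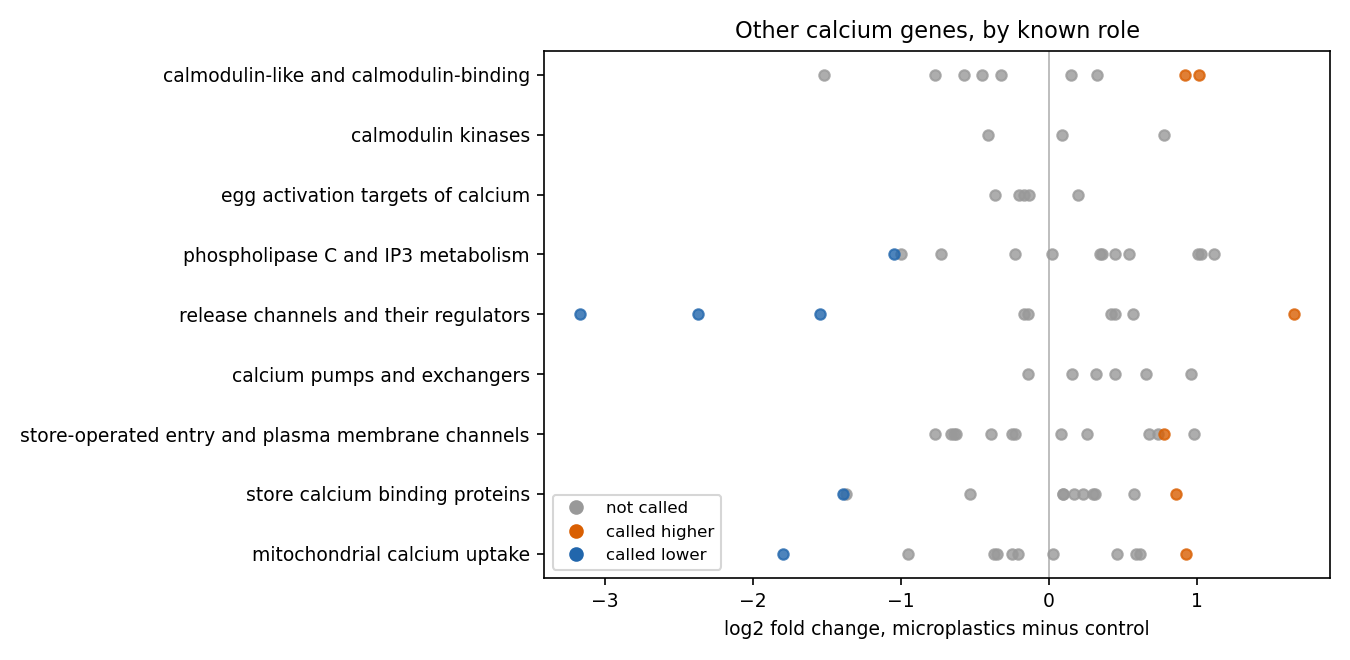
Log2 fold change from control to microplastics (TMM) of the 79 tested calcium genes that are not members, 1 point per gene, in rows by known role; grey points did not pass the test, orange were called higher and blue lower. ERP44 and TMBIM6, the 2 lowest points at -3.17 and -2.37, lie in the row of release channels and their regulators.

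Of the 9 tested release channels and regulators 1 was called higher and 3 lower (44.4%, against 24.3% of all genes). The 3 lower genes included ERP44 and TMBIM6, the 2 lowest values of the 79 genes. Nothing is read from that share, since the lists were chosen with earlier results known. With TMM 0 of the 6 tested pumps and exchangers, 0 of the 3 calmodulin kinases and 0 of the 5 egg activation targets were called. These counts depend on the scaling: with library size only 4 pumps and exchangers (ATP2C1, ATP2C2, SLC8A2 and SLC8B1) and 2 kinases (CAMK1 and CAMKK2) were called higher, when the median of all genes was 0.52. With the length trend removed 1 egg activation target, WEE2, was called lower and 0 release channels and regulators were called higher. ERP44, a lumenal thioredoxin-like protein known to bind and inhibit the type 1 receptor, stood at 400, 183 and 257 CPM in control, 30.3, 32.2 and 30.7 with microplastics and 134, 161 and 140 with taurine. The 3 groups did not overlap, with taurine between the other two. The log2 fold change was -3.17 ± 0.26 (SE; adjusted p = 2.16e-05) from control to microplastics and 2.22 ± 0.25 (adjusted p = 0.000209) from microplastics to taurine. From control to taurine it was -0.95 ± 0.24 and did not pass (adjusted p = 0.855).

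TMCO1, a channel that lets calcium leak from an overfilled store, dropped from 341 ± 78.0 to 117 ± 9.39 CPM with microplastics and was 296 ± 16.6 CPM with taurine (n = 3, SD; log2 -1.55, adjusted p = 0.000169, and 1.34, adjusted p = 0.000589). TMBIM6, a membrane protein of the store, fell by 2.37 on the log2 scale (adjusted p = 0.000286) and RCN2, a calcium-binding protein of its lumen, by 1.39 (adjusted p = 0.00875). Both rose with taurine, by 1.29 and 1.49. TMBIM6 lost that second call without microplastics 1 or microplastics 3 (1.19 to 1.28) and RCN2 without microplastics 1 (1.40). TMBIM6 stood at 188 ± 68.5 CPM in control, 36.45 ± 4.31 with microplastics and 89.3 ± 29.4 with taurine (n = 3, SD). Its taurine libraries all lay below its control libraries (log2 -1.07 ± 0.29, SE, not called). RCN2 stood at 488.5 ± 169, 186 ± 22.8 and 524 ± 200 CPM, with control and taurine overlapping (0.10 ± 0.31). The calls of ERP44 and TMCO1 in both comparisons, and those of TMBIM6 and RCN2 from control to microplastics, were kept without each library in turn.

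The 8 remaining calls from control to microplastics were lost when at least 1 library was left out. STIM2, the second store sensor, rose by log2 0.78, and MYLK, a calmodulin-dependent kinase, by 0.92; both calls were lost without control 1, control 2, microplastics 1 or microplastics 3 (0.68 to 0.77 for STIM2, 0.84 to 0.93 for MYLK). PPP3CB, a catalytic subunit of the calmodulin-dependent phosphatase calcineurin, rose by 1.02, ITPRIP, which binds the receptor, by 1.66 and LETM1, of the inner mitochondrial membrane, by 0.93. These 3 calls were lost without control 1, control 2, taurine 2 or any microplastics library (0.79 to 1.05, 1.27 to 1.82 and 0.78 to 0.99). RCN1, a relative of RCN2, rose by 0.86, a call lost without control 1, taurine 2 or any microplastics library (0.61 to 0.92).

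PLCE1, a phospholipase C, fell by 1.05, a call lost without control 1, control 2 or any microplastics library (-1.10 to -0.94). SMDT1, a subunit of the mitochondrial calcium uniporter, fell by 1.80 from a mean under 3 CPM. That call was lost without control 1, control 2, microplastics 1 or microplastics 3 (-1.76 to -1.52). With the length trend removed the calls of STIM2, ITPRIP, RCN1, LETM1 and SMDT1 were lost, and with library size only that of PLCE1. Of PPP3CB and MYLK 1 stayed called with the length trend removed.

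From microplastics to taurine 7 of the 79 genes were called higher, 4 lower and 68 did not pass, against 10.1% higher and 4.13% lower (14.2% in all) of all tested genes. Their median was -0.16, against -0.02, and with library size only 4 were higher and 15 lower. Without single libraries the 11 calls became 2 (microplastics 1), 7 (microplastics 2), 3 (microplastics 3), 5 (taurine 2) and 5 (taurine 3).

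CDC20, an activator of the anaphase-promoting complex, rose by 0.69, a call lost without any microplastics library, taurine 2 or taurine 3 (0.57 to 0.73). SMDT1 rose by 1.74 (1.27 to 1.87 where lost: without taurine 2, taurine 3, microplastics 1 or microplastics 3). ITPKA, a kinase of inositol trisphosphate, rose by 2.66 from 0.207 ± 0.026 to 1.35 ± 1.32 CPM (SD, n = 3), a call lost without any microplastics library or taurine 3 (1.51 to 2.70). PLCG2 and STIM2 fell by 0.68 and 0.73, both lost without microplastics 1, microplastics 3, taurine 2 or taurine 3 (-0.74 to -0.54 and -0.72 to -0.62). PPP3CB fell by 1.16, lost without any microplastics library, taurine 2 or taurine 3 (-1.20 to -1.01). RCN1 fell by 1.00, lost without any microplastics library, taurine 1 or taurine 2 (-1.06 to -0.88). With library size only the calls of CDC20, SMDT1 and ITPKA were lost, and with the length trend removed those of SMDT1, PLCG2 and STIM2. PPP3CB and RCN1 kept their calls under both settings.

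Further partners named whatever their values did not pass with TMM. FBXO43, which encodes the arrest factor EMI2, stood at 140.5 ± 9.89 CPM in control, 122 ± 5.07 with microplastics and 130 ± 23.3 with taurine (n = 3, SD). WEE2, an oocyte kinase that inhibits CDK1 and is a substrate of calmodulin kinase II, stood at 1195 ± 107, 929 ± 104 and 1115 ± 36.3 CPM (adjusted p = 0.0949 from control to microplastics, and 0.0222 with the length trend removed). ORAI1, the channel that STIM1 opens, stood at 15.4 ± 4.83, 11.8 ± 2.66 and 9.79 ± 0.86 CPM. CALR, the calreticulin of the store lumen, stood at 68.2 ± 6.09, 84.7 ± 15.2 and 54.8 ± 11.8 CPM. MCU, the pore of the mitochondrial uniporter, stood at 49.8 ± 7.56, 75.1 ± 7.30 and 55.7 ± 14.7 CPM (adjusted p = 0.0634). TRPM7, a cation channel (log2 0.68), PPP3CA of calcineurin (-0.57) and ITPR3, the type 3 receptor (0.45 at under 3 CPM), did not pass from control to microplastics either. TRPM7, CALR and MCU were called higher with microplastics and lower with taurine when scaled by library size only, and with the length trend removed MCU passed in the first comparison (log2 0.64) and CALR in the second (-0.70).

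Between control and taurine 0 of the 79 genes were called by edgeR, against 1 of 13206 genes in all (0.00757%, a gene with no symbol), or 753 (5.7%) at an unadjusted p under 0.05. By the Wald test of DESeq2 5 genes in all were called and 0 of the 79. With control 3 and taurine 3 both left out, 783 genes and 5 of the 79 were called.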

How the data were processed

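Per the labels' protocols, TRIzol was used for total RNA, and library preparation followed the sequencing provider's standard. For aligner, counter and genome build: not given in the sources used here. Deposited values are, per transcript and library, estimated counts, TPM and FPKM. Estimated counts deposited by the authors were summed per gene and rounded to whole numbers. TPM deposited by the authors was summed per gene, and FPKM deposited by the authors served, with the counts, for implied transcript length. Another 21 columns (9 of scaled counts, 12 of group means) were not used. Symbols came from the RefSeq table of assembly ARS-UCD2.0 for 95.2% of genes.

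The 9 libraries were fitted together with edgeR 4.0.16 in R 4.3.3 (TMM, minimum count 10, minimum total 15, quasi-likelihood test, Benjamini-Hochberg adjustment, called at an adjusted p under 0.05). A count of 3 equals 0.132 to 0.142 CPM; such floors cover counting error only. TPM was compared as log2(TPM + 1) with limma 3.58.1. DESeq2 1.42.0, other scalings and filters, and leaving out libraries were alternatives. Tested on simulated data for microplastics minus control (13206 genes), the fit called 3, 16, 41 and 47 of 50 genes changed 1.5, 2, 4 and 8-fold, with 8 false calls. In that simulation most genes were equal between groups, changes went evenly up and down, and no length trend was added. It therefore cannot show false calls that come from scaling or length.

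The members and lists were chosen with earlier results of these data known. Named were every member, up to 2 called genes per list, comparison and direction with the largest change, ORAI1, STIM2, ITPR3, CALR, FBXO43, WEE2, TRPM7, MCU and PPP3CA, the 5 genes nearest CALM2 and CALM3 (prior count 2), and markers. A further gene is not reported here.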

Additional observations from a re-analysis of the deposited data

How the results depend on the processing

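The labels do not say whether libraries of a group are separate animals, and 3 a group limit the precision. Of the settings tried for the members, 495 kept the value within 1 SE, 41 moved it by more and 4 reversed it. A reversal was counted only for values beyond their own error, a rule set after seeing the values. Some settings could hardly move a value, such as leaving out a library of the group not compared. The count of 495 therefore overstates how firm the values are. ATP2A2 from control to microplastics turned to 0.17 with library size only and 0.27 in TPM, and from microplastics to taurine to -0.04 and -0.13. With the length trend removed the values of ATP2A2 were -0.55 and 0.61, in the direction of TMM. From control to microplastics 3213 genes were called, but 4880 with library size only, 6036 with limma on TPM, 5110 with control 3 and taurine 3 both left out, and 1715 to 4151 without single libraries. For the calcium lists these were 12, 33, 37, 26 and 4 to 20. From microplastics to taurine 1878 genes were called, 3080 with library size only, 4372 with limma on TPM and 888 to 2146 without single libraries; for the lists 11, 19, 27 and 2 to 14. The share of calls that were higher went from 39.8% to 82.0% with library size only from control to microplastics, and from 71.0% to 19.4% from microplastics to taurine. From control to taurine 1 gene was called, 0 with a filter of 5 CPM, limma-voom, limma on TPM or the compared groups only, 5 with DESeq2, 783 with control 3 and taurine 3 both left out (5 of the lists) and 0 to 2 without single libraries. The cause of these changes was not tested.

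No sign of pairing by replicate number was seen: same-numbered libraries correlated at -0.44 to 0.26, and 1 of 9 was closest to its own number. The labels state no pairing, and 3 libraries a group are too few to exclude it. With the replicate block 2417, 1293 and 0 genes were called in the 3 comparisons, and 10, 8 and 0 of the lists. ITPR2 from its longer row only, an alternative chosen after seeing the data, turned the TPM log2 difference from -0.24 to 0.52 from control to microplastics. The median of all genes on log2(TPM + 1) was 0.42 in that comparison.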
